A study of Homo sapiens with 15 samples.

Results

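Interferon-stimulated genes are genes whose transcription is raised when a cell senses an interferon. The 49 genes described here were taken by symbol from a list of such genes, a rule that used no measured value, though the list was chosen with earlier results of these data known, and each has 1 row among the 26364 gene rows of the deposited table. Of the 49, 36 had a mean of at least 1 TPM (a level normalised for transcript length and for the total of each library) over the 15 libraries and were tested among the 12002 genes above that mean. The other 13 are given by their levels. All libraries come from the human multiple myeloma line RPMI-8226, an established cell line kept in medium that holds fetal bovine serum. One group of 3 libraries was given the solvent DMSO (labelled WT for genotype and counted as 0 h), and 4 groups of 3 were given 100 nM KB528, which blocks the lysine acetyltransferase p300, for 1, 3, 6 or 24 h. The genotype label of the treated libraries repeats the compound's name, and no label names an added interferon. One cell line and 1 dose were used, and DMSO was sampled at 1 time.

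Interferons signal through paired receptor chains to the kinases JAK1 and TYK2, which phosphorylate STAT proteins. STAT2 and IRF9 belong to a complex that binds the interferon-stimulated response element (ISRE), and the gamma-activated site (GAS) is a second element of such genes. The products sense foreign RNA, cut it, conjugate the ubiquitin-like protein ISG15, block viral entry and recruit lymphocytes, and p300 and its relative CBP are known coactivators of STAT and IRF factors.

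Short stretches of promoter are shown for 9 members whose RNA levels are described in full or in their role group below, so that the response element can be read beside its gene. They are RefSeq sequence on GRCh38.p14, printed 5′ to 3′ on the gene's strand, and capitals mark the matches to 1 motif in each stretch. That motif is the ISRE core, which is GAAA, any 2 bases and GAAA (on the other strand it reads TTTC, any 2 bases and TTTC), except in OAS1, where it is the IRF-ETS composite element (GGAA, any 2 bases and GAAA), and in IRF1, where it is the GAS (TTCNNNGAA). The first set holds genes with at least 1 time point below DMSO. The OAS1 stretch is chr12:112906882-112906961 on the plus strand, bases 80 to 1 before the start, that of IFIT1 is chr10:89392493-89392542 on the plus strand, bases 130 to 81 before the start, that of ISG20 is chr15:88638926-88638975 on the plus strand, bases 90 to 41 before the start, and that of ISG15, with 2 overlapping matches, is chr1:1013367-1013416 on the plus strand, bases 130 to 81 before the start.
OAS1: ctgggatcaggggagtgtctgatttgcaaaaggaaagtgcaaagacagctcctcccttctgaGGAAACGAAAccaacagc
IFIT1: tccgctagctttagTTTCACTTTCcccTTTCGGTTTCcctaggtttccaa
ISG20: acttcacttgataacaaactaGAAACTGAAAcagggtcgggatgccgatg
ISG15: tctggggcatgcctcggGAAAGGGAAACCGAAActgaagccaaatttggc

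The second set holds CXCL10, higher than DMSO at all 4 times, and PARP9 and PARP14, higher at 24 h. The CXCL10 stretch is chr4:76023688-76023737 on the minus strand, bases 240 to 191 before the start, that of PARP9 is chr3:122564301-122564341 on the minus strand, bases 41 to 1 before the start, and that of PARP14 is chr3:122680779-122680838 on the plus strand, bases 60 to 1 before the start. The 10 capital bases of PARP9, chr3:122564332-122564341, also lie in the window of DTX3L, its divergent neighbour, beginning 6 bases before the DTX3L start. Left in lower case are a match to the composite element at bases 35 to 26 before the start in each of PARP9 and PARP14, which overlaps the capitals, and a GAS match at bases 40 to 32 in PARP14.
CXCL10: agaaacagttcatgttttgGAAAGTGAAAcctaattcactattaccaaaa
PARP9: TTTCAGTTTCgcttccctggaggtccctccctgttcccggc
PARP14: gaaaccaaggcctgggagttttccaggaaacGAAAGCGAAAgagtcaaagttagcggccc

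The third set holds IFIT5 and IRF1, both lower at 1 h and 3 h. The IFIT5 stretch is chr10:89414508-89414567 on the plus strand, bases 60 to 1 before the start, and that of IRF1 is chr5:132490874-132490923 on the minus strand, bases 150 to 101 before the start.
IFIT5: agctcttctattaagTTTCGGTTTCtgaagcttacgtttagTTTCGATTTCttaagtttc
IRF1: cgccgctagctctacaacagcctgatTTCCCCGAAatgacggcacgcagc

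The motifs were searched on both strands of windows from 250 bases before to 50 bases after each gene's start. The ISRE core was found in 25 of the 39 members with a window in the table, against 4.38% of the 27305 genes with a window and 3.57% of all 35116 windows. The composite element, which can overlap the ISRE core, was found in 12 of 39 members, against 3.47% of genes with a window and 2.82% of windows. The GAS was found in 10 of 39 members, against 9.38% of genes with a window and 7.66% of windows. Allowing up to 1 mismatch outside the N positions raised the ISRE count to 32 of 39 members and to 33.0% of windows. The share of genes was not counted for that search. For the other 10 members (DHX58, OAS2, OASL, IRF7, USP18, PML, TRIM22, IFIT2, IFITM2 and MX2) no promoter was analysed here. A match describes letters in the sequence and is not evidence that a factor binds there.

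All 8 myeloma and plasma cell markers examined (among them SDC1, TNFRSF17, IRF4 and XBP1) were expressed, with summed levels of 4225 to 4368 TPM in DMSO and 2292 to 2343 TPM at 24 h. Of 6 monocyte markers, CD14 alone reached 1 TPM in any library (highest 1.40 TPM), and none of 6 T and NK cell or 5 stromal markers did. CD3D and CD2 were at 0 in every library. The 92 ERCC spike-in rows took 9.35% to 16.6% of the TPM, 11616 to 12356 genes reached 1 TPM, and libraries of one group correlated at 0.997 to 0.999 across genes. Rescaling to the spike-ins would shift log2 changes of TPM against DMSO by -0.06, -0.22, 0.19 and -0.02 at 1, 3, 6 and 24 h. Rescaling to the median ratio of genes would shift them by -0.05, 0.00, -0.16 and -0.20 at the same times. On the log2(TPM + 1) scale used below, genes at low levels move less. For example, the 3 h change of PARP9 went from -0.26 to -0.36 under spike-in scaling. The labels do not say that the 3 libraries of a group are separate cultures, so p-values measure the spread between libraries, which may be technical.

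In DMSO the tested members spanned a wide range of levels. BST2, which tethers budding virions to the cell surface, stood first at 1146 ± 47.9 TPM (mean ± SD, n = 3 here and below). UBE2L6, the conjugating enzyme for ISG15, followed at 141 ± 2.002 TPM and ADAR, which edits double-stranded RNA, at 136 ± 17.3 TPM, and these neighbours overlapped. IFI6, ISG15 and TRIM25 came next at 48.4 ± 3.57 TPM, 45.6 ± 3.96 TPM and 43.8 ± 5.30 TPM, again within their spreads. Some antiviral genes were low: IFIT3 was at 3.61 ± 0.195 TPM, IFIT1 at 2.10 ± 0.244 TPM, MX1 at 3.47 ± 0.404 TPM and OAS2 at 1.43 ± 0.0678 TPM. Others, besides BST2, were higher, among them OAS1 at 19.0 ± 0.269 TPM and ISG20 at 11.8 ± 0.772 TPM. The heat map of all tested members gives their changes against DMSO.

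**Figure D1:**
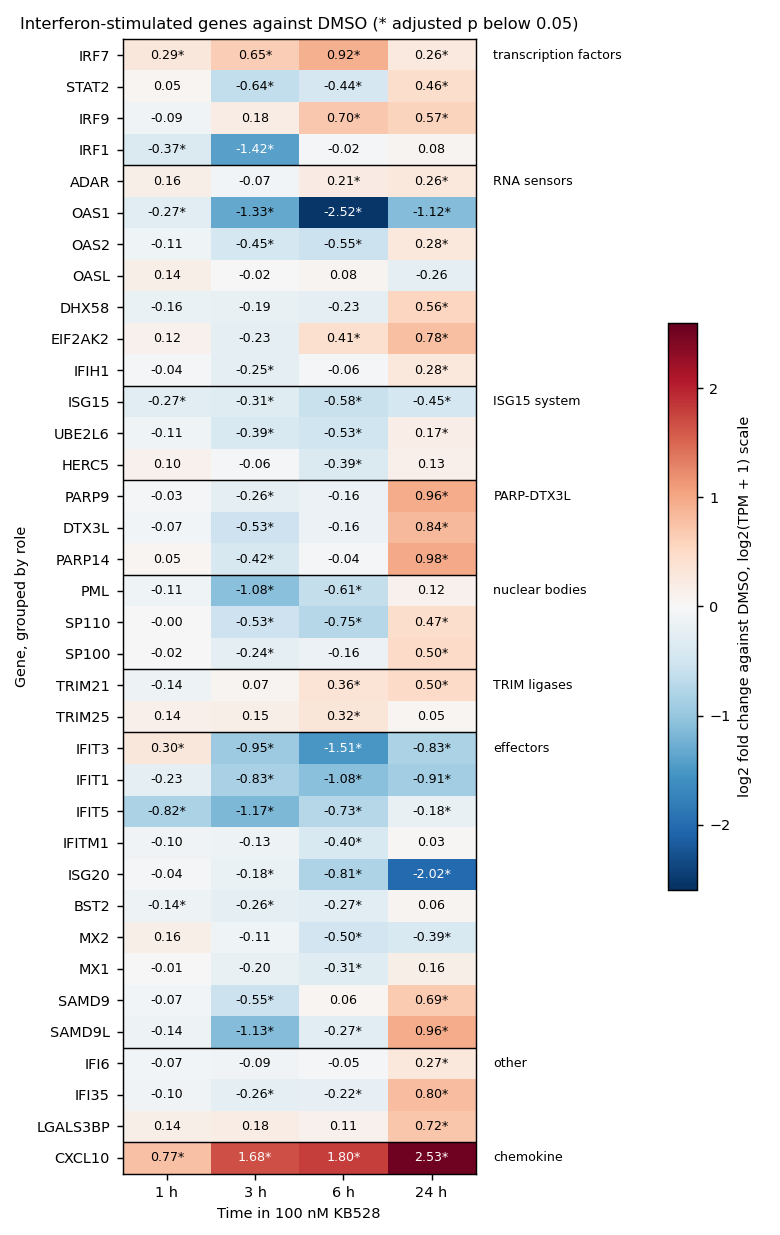
Heat map of the log2 fold change against DMSO (colour and printed value, log2(TPM + 1) scale) of the 36 tested interferon-stimulated genes (rows, grouped by role) at 1, 3, 6 and 24 h of KB528 (columns), with a star at an adjusted p below 0.05. Negative values predominate at 3 h, where 21 genes were called lower (58.3%, against 32% of all tested genes). Positive ones predominate at 24 h, where 21 were called higher (58.3%, against 56.1% of all tested genes). CXCL10 is positive at all 4 times.

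The 36 tested members were mostly lower than DMSO at 3 h and mostly higher at 24 h. Log2 changes are of TPM + 1, tested with limma, and a gene is called at a Benjamini-Hochberg adjusted p below 0.05 over all 12002 genes. Adding 1 makes a change smaller than that of TPM itself, most of all for genes near or below 1 TPM. The 4 comparisons with DMSO share the same 3 DMSO libraries. At 1 h, 3 members were called higher (8.33%) and 5 lower (13.9%), where 15% and 7.57% of all tested genes were. CXCL10, IRF7 and IFIT3 were the higher ones and IRF1, ISG15, OAS1, BST2 and IFIT5 the lower ones. At 3 h, 2 were higher (5.56%) and 21 lower (58.3%), against 24.9% and 32% of all genes. The median log2 change of the members at 3 h was -0.25, and that of all genes -0.04. At 3 h all 3 libraries lay above all 3 DMSO libraries for 4 members and below them for 22, as for 24.3% and 30.5% of all genes. At 1 h this held for 4 above and 10 below (23.1% and 13.5% of all genes).

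At 6 h, 7 members were called higher (19.4%) and 18 lower (50%), against 44.4% and 24.5% of all tested genes, with medians of -0.22 for the members and 0.12 for all genes. At 24 h, 21 were higher (58.3%) and 7 lower (19.4%), against 56.1% and 15.2% of all genes, and the medians were 0.27 and 0.23. Libraries did not overlap DMSO for 6 members above and 20 below at 6 h (44.3% and 24.1% of all genes), and for 21 above and 6 below at 24 h (56.7% and 15.4%). On this scale the 24 h shares and median of the members were near those of all genes, and those at 3 h and 6 h lay on the lower side. With fewer cells or less RNA per cell, these bulk levels would look alike, and time in culture cannot be told apart from KB528. Under spike-in scaling the split of members at 1 h was 1 higher and 1 lower (2.91% and 1.02% of all genes), at 6 h 6 and 8 (34.3% and 8.26%), and at 24 h 12 and 4 (20.3% and 5.48%). Under median-ratio scaling it was 3 and 9 at 1 h (15.5% and 14.9% of all genes) and 15 and 11 at 24 h (37.1% and 30%). At 6 h median-ratio scaling called 0 of 10 tested effectors higher and 9 lower (32.7% and 37.5% of all genes). For the 7 tested RNA sensors it called 1 higher and 4 lower. At 3 h spike-in scaling called 0 effectors higher and 5 lower, and 0 sensors higher and 2 lower (3.43% and 21% of all genes).

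**Figure D2:**
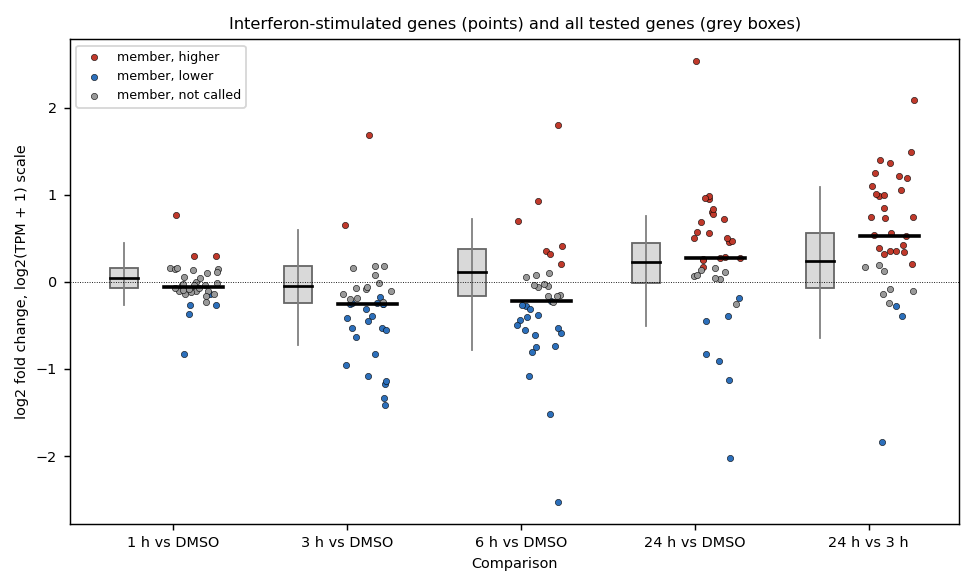
Log2 fold change (y axis) at 1, 3, 6 and 24 h against DMSO and at 24 h against 3 h for the 36 tested members (points, coloured by call, black line at their median) beside all 12002 tested genes (grey box from the lower to the upper quartile with the median, whiskers from the 5th to the 95th percentile). The members lie mostly below 0 at 3 h (median -0.25) and spread from below -2 (ISG20, -2.02) to above 2 (CXCL10, 2.53) at 24 h.

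Compared directly, 24 h against 3 h of KB528, where the DMSO libraries enter only the estimate of the spread, gave 26 members higher (72.2%) and 3 lower (8.33%), against 56.2% and 19.9% of all tested genes. The medians were 0.53 for the members and 0.23 for all genes, and the libraries did not overlap for 26 members above and 4 below (57.3% and 20.9% of all genes). IRF7, MX2 and ISG20 were the 3 lower ones. Between successive times, 4 members were higher and 22 lower at 3 h against 1 h (15.2% and 31.8% of all genes), 13 higher and 9 lower at 6 h against 3 h (42.3% and 13.7%), and 25 higher and 4 lower at 24 h against 6 h (41% and 26%). The 6 h against 3 h split depended on the scaling, with 9 members higher and 13 lower under the median ratio (25.9% and 30.1% of all genes) and 19 and 1 under spike-in scaling (61.3% and 1.93%). In summed TPM over the 49 members without BST2, the libraries ran from 665 to 730 in DMSO, 684 to 690 at 1 h, 559 to 601 at 3 h, 616 to 673 at 6 h and 827 to 864 at 24 h. This sum without BST2 was lowest at 3 h and highest at 24 h, and neither of these groups overlapped DMSO. With BST2 included, the 3 h and 6 h libraries overlapped each other, at 1519 to 1571 and 1540 to 1633 TPM. The sums were not recomputed under the other scalings.

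Among the factors that drive interferon-stimulated genes, IRF7 rose at every time (under spike-in scaling only the 6 h call held), IRF9 rose at 6 h and 24 h, STAT2 fell at 3 h and 6 h and rose at 24 h, and IRF1 fell at 1 h and 3 h. At 24 h, 3 of these 4 members were called higher and none lower, against 56.1% and 15.2% of all tested genes. The counts were 2 and 1 (IRF1) under median-ratio scaling, against 37.1% and 30% of all genes. They were 1 and 0 under spike-in scaling, against 20.3% and 5.48%. STAT2 was at 26.3, 24.3 and 30.6 TPM in the DMSO libraries, 27.6, 28.5 and 27.8 TPM at 1 h and 16.5, 15.4 and 19.3 TPM at 3 h. Its levels were 18.7, 19.3 and 20.9 TPM at 6 h and 38.0, 38.6 and 35.9 TPM at 24 h. The 3 h and 6 h libraries of STAT2 lay below, and the 24 h libraries above, all DMSO libraries, and those at 1 h were within the DMSO range. Against DMSO, STAT2 had log2 changes of 0.05, -0.64, -0.44 and 0.46 at 1, 3, 6 and 24 h (SE 0.08 each), with adjusted p-values of 0.678, 1.03e-05, 0.000234 and 0.000149 in that order. From 3 h to 24 h STAT2 changed by 1.10 (adjusted p = 1.16e-08). Under spike-in scaling the STAT2 calls at 6 h and 24 h were lost.

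IRF9 is the DNA-binding partner of STAT2. IRF9 was at 6.06, 5.58 and 6.70 TPM in the DMSO libraries, 6.29, 5.55 and 5.26 TPM at 1 h and 7.17, 6.92 and 7.11 TPM at 3 h. Its levels were 9.31, 11.2 and 11.3 TPM at 6 h and 9.88, 9.65 and 9.10 TPM at 24 h. The 3 h, 6 h and 24 h libraries lay above all DMSO libraries, and the 1 h libraries overlapped them. Against DMSO, IRF9 had log2 changes of -0.09, 0.18, 0.70 and 0.57 at 1, 3, 6 and 24 h (SE 0.08 each), with adjusted p-values of 0.456, 0.0615, 1.73e-06 and 1.58e-05 in that order.

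IRF1 activates both ISRE and GAS-linked genes. IRF1 was at 29.9, 29.8 and 35.5 TPM in the DMSO libraries, 24.3, 24.3 and 24.4 TPM at 1 h and 11.3, 10.4 and 11.9 TPM at 3 h. Its levels were 29.7, 31.3 and 32.6 TPM at 6 h and 33.8, 33.8 and 32.8 TPM at 24 h. The 1 h and 3 h libraries of IRF1 lay below all DMSO libraries, whereas those of 6 h and 24 h overlapped them. Against DMSO, IRF1 had log2 changes of -0.37, -1.42, -0.02 and 0.08 at 1, 3, 6 and 24 h (SE 0.06 each), with adjusted p-values of 0.000843, 1.27e-10, 0.776 and 0.29 in that order. IRF1 then rose by 1.40 (adjusted p = 3.22e-10) between 3 h and 6 h. IRF7, the factor that amplifies interferon alpha transcription, moved the other way. IRF7 was at 10.9, 11.3 and 10.1 TPM in the DMSO libraries, 13.7, 13.8 and 12.7 TPM at 1 h and 17.6, 16.9 and 17.8 TPM at 3 h. Its levels were 20.3, 21.5 and 22.1 TPM at 6 h and 13.0, 13.0 and 13.2 TPM at 24 h. Each KB528 group of IRF7 lay above DMSO, with the highest libraries at 6 h. Against DMSO, IRF7 had log2 changes of 0.29, 0.65, 0.92 and 0.26 at 1, 3, 6 and 24 h (SE 0.05 each), with adjusted p-values of 0.00105, 8.66e-08, 1.27e-09 and 0.000544 in that order. IRF7 was lower at 24 h than at 6 h, with a change of -0.67 (adjusted p = 3.84e-08), and under median-ratio scaling its 24 h change against DMSO was 0.07, adjusted p = 0.279. Under spike-in scaling IRF7 changed by 0.24, 0.44 and 0.24 at 1 h, 3 h and 24 h, with adjusted p-values of 1.00, 0.0893 and 0.381, and the 1 h call of IRF1 was lost (-0.42, adjusted p = 0.463).

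**Figure D3:**
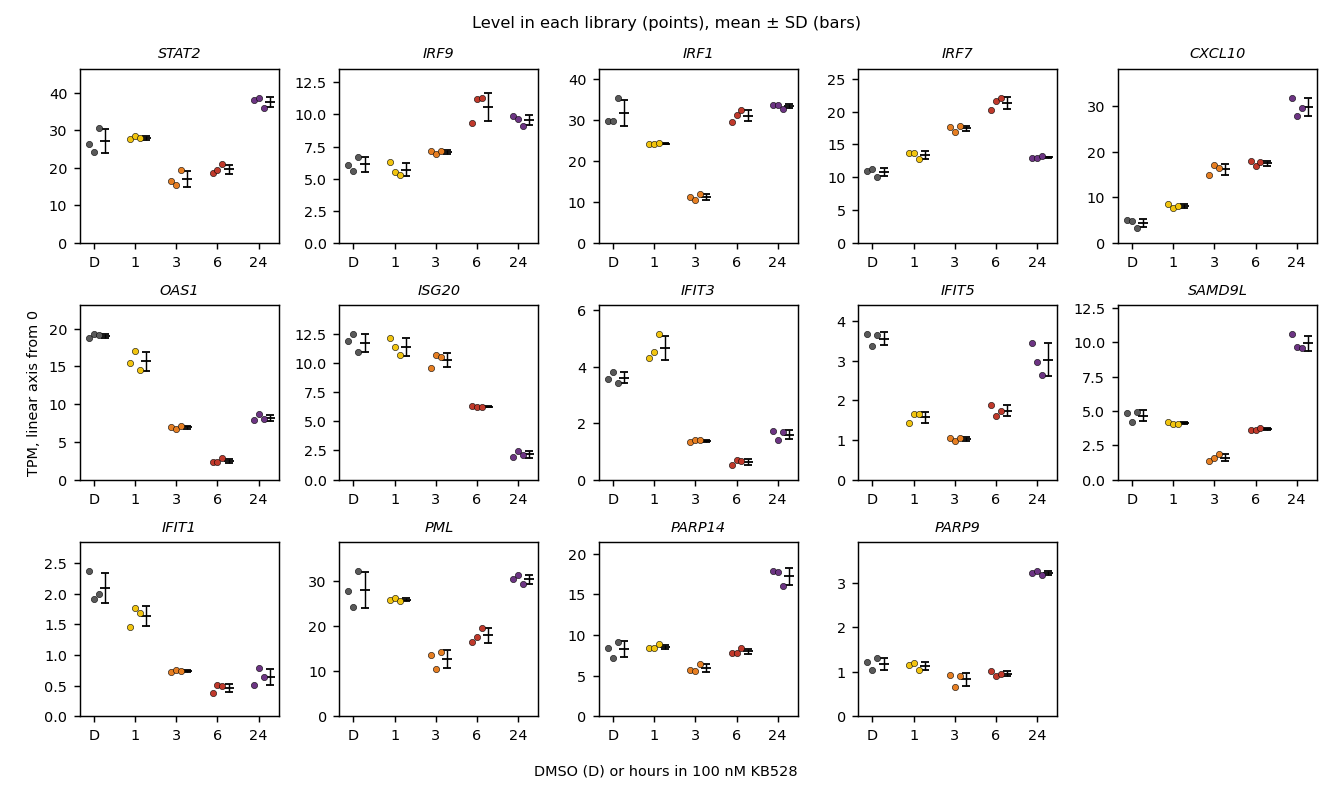
TPM of members described in full in each of the 15 libraries (points, 3 per group) with mean ± SD (bars), for DMSO (D) and 1, 3, 6 and 24 h of KB528, each panel on its own linear axis from 0. OAS1 reaches its lowest levels at 6 h (2.28 to 2.82 TPM) and ISG20 at 24 h (1.93 to 2.45 TPM), while CXCL10 is highest at 24 h (28.0 to 31.9 TPM).

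Among the RNA sensors and the enzymes that act on double-stranded RNA, OAS1 fell at all 4 times, and the others differed from one another. Of 7 tested, 5 were called higher at 24 h and 1, OAS1, lower, against 56.1% and 15.2% of all tested genes. Under median-ratio scaling these counts were 2 and 2 (37.1% and 30% of all genes), and under spike-in scaling 2 and 1 (20.3% and 5.48%). At 3 h 3 were lower and none higher, against 32% and 24.9% of all genes. OAS1 makes the oligoadenylates that activate RNase L, and its promoter stretch with the composite element is shown above. OAS1 was at 18.7, 19.2 and 19.1 TPM in the DMSO libraries, 15.4, 17.1 and 14.5 TPM at 1 h and 6.97, 6.74 and 7.14 TPM at 3 h. Its levels were 2.28, 2.37 and 2.82 TPM at 6 h and 7.88, 8.67 and 8.05 TPM at 24 h. All KB528 groups of OAS1 lay below all DMSO libraries, with the lowest at 6 h and a partial return at 24 h. Against DMSO, OAS1 had log2 changes of -0.27, -1.33, -2.52 and -1.12 at 1, 3, 6 and 24 h (SE 0.07 each), with adjusted p-values of 0.0126, 4.81e-10, 4.6e-13 and 4.49e-09 in that order. The rise from 6 h to 24 h was 1.40 (adjusted p = 3.32e-10). The 1 h call of OAS1 was lost without KB528 1 h replicate 3 (-0.22, adjusted p = 0.0683) and under spike-in scaling (-0.32, adjusted p = 0.843). The change of OAS1 at 24 h against 3 h, 0.21 (adjusted p = 0.0123), was 0.03 under median-ratio scaling (adjusted p = 0.673), and its call was also lost under spike-in scaling (0.39, adjusted p = 0.0769) and without KB528 24 h replicate 2 (0.17, adjusted p = 0.059).

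The kinase EIF2AK2 (PKR), which halts translation on binding double-stranded RNA, went from 9.81 ± 0.909 TPM in DMSO to 17.5 ± 0.959 TPM at 24 h, a log2 change of 0.78 (adjusted p = 4.92e-06). DHX58 (LGP2), a RIG-I-like helicase, rose by 0.56 (adjusted p = 0.000154) at 24 h. IFIH1 (MDA5), which detects long double-stranded RNA, changed by -0.25 (adjusted p = 0.00729) at 3 h and 0.28 (adjusted p = 0.0025) at 24 h. OAS2 changed by -0.45 (adjusted p = 8.2e-05) at 3 h, -0.55 (adjusted p = 6.5e-06) at 6 h and 0.28 (adjusted p = 0.00263) at 24 h. ADAR changed by 0.26 (adjusted p = 0.00913) at 24 h, a call lost without DMSO replicate 2 (0.17, adjusted p = 0.0611). OASL was called at no time against DMSO. The 24 h calls of IFIH1, OAS2 and ADAR were lost both under median-ratio scaling and under spike-in scaling, and the 3 h call of IFIH1 under the latter.

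Genes of the ISG15 system, which conjugates this ubiquitin-like protein to other proteins, were lower at 6 h in 3 of 3 tested members. Of all tested genes 24.5% were lower at 6 h. Under spike-in scaling 0 of these members were called at 6 h, where 8.26% of all genes were lower. ISG15 went from 45.6 ± 3.96 TPM in DMSO to 30.1 ± 2.24 TPM at 6 h and 33.1 ± 3.19 TPM at 24 h. Against DMSO, ISG15 had log2 changes of -0.27, -0.31, -0.58 and -0.45 at 1, 3, 6 and 24 h (SE 0.08 each), with adjusted p-values of 0.0193, 0.00258, 6.48e-06 and 7.68e-05 in that order. The 1 h call of ISG15 was lost on leaving out DMSO replicate 1 (-0.23, adjusted p = 0.0777), DMSO replicate 2 (-0.23, adjusted p = 0.0784), KB528 1 h replicate 1 (-0.26, adjusted p = 0.0621) or KB528 1 h replicate 3 (-0.25, adjusted p = 0.0701). UBE2L6, the conjugating enzyme, fell, with changes of -0.39 (adjusted p = 7.98e-07) at 3 h and -0.53 (adjusted p = 2.51e-08) at 6 h, and its 24 h change was 0.17 (adjusted p = 0.0017), turning to -0.03 under median-ratio scaling. Under spike-in scaling the 1 h and 24 h calls of ISG15 and the 24 h call of UBE2L6 were lost as well. HERC5, the ligase, changed by -0.39 (adjusted p = 0.00181) at 6 h. USP18, which removes ISG15, was untested, with 7 of 15 libraries at 0.

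The ADP-ribosylation genes PARP9, DTX3L and PARP14 kept close to one another: all 3 were lower at 3 h, none was called at 1 h or 6 h, and all 3 were higher at 24 h. Of all tested genes, 32% were lower at 3 h and 56.1% higher at 24 h. Under median-ratio scaling all 3 were also lower at 6 h, as were 37.5% of all genes. PARP9 and DTX3L are divergent neighbours whose products form a ubiquitin ligase complex. PARP14 was at 8.44, 7.18 and 9.16 TPM in the DMSO libraries, 8.34, 8.43 and 8.86 TPM at 1 h and 5.66, 5.58 and 6.47 TPM at 3 h. Its levels were 7.80, 7.79 and 8.35 TPM at 6 h and 17.9, 17.8 and 16.0 TPM at 24 h. PARP14 libraries lay below all DMSO libraries at 3 h and, at 24 h, above them. Against DMSO, PARP14 had log2 changes of 0.05, -0.42, -0.04 and 0.98 at 1, 3, 6 and 24 h (SE 0.08 each), with adjusted p-values of 0.674, 0.00031, 0.676 and 6.2e-08 in that order. PARP9 was at 1.22, 1.03 and 1.30 TPM in the DMSO libraries, 1.15, 1.21 and 1.04 TPM at 1 h and 0.933, 0.663 and 0.899 TPM at 3 h. Its levels were 1.01, 0.904 and 0.952 TPM at 6 h and 3.23, 3.27 and 3.19 TPM at 24 h. For PARP9 the 3 h and 6 h libraries were below, and the 24 h libraries above, those of DMSO. Against DMSO, PARP9 had log2 changes of -0.03, -0.26, -0.16 and 0.96 at 1, 3, 6 and 24 h (SE 0.08 each), with adjusted p-values of 0.786, 0.01, 0.0777 and 6.44e-08 in that order. The 3 h call of PARP9 was lost without KB528 3 h replicate 2 (-0.19, adjusted p = 0.0568) and under spike-in scaling (-0.36, adjusted p = 0.0931). DTX3L went from 6.74 ± 1.11 TPM in DMSO to 12.8 ± 0.796 TPM at 24 h, with log2 changes of -0.53 (adjusted p = 0.000534) at 3 h and 0.84 (adjusted p = 5.17e-06) at 24 h. From 3 h to 24 h PARP14 rose by 1.40 (adjusted p = 4.69e-10), PARP9 by 1.21 (adjusted p = 1.75e-09) and DTX3L by 1.37 (adjusted p = 1.42e-08). The added 1 reduces the change of PARP9 most, since its levels at 3 h were below 1 TPM. These sizes therefore do not rank the 3 rises. PARP9 and DTX3L lie head to head, and the sources used here do not say whether reads were counted by strand.

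Nuclear body genes were lower at 3 h in 3 of 3 members (PML, SP100 and SP110), and 2 of 3 were higher at 24 h. Of all tested genes, 32% were lower at 3 h and 56.1% higher at 24 h. Under spike-in scaling 2 of the 3 members were lower at 3 h and 1 higher at 24 h, against 21% and 20.3% of all genes. PML is the scaffold of these bodies. PML was at 27.7, 24.1 and 32.1 TPM in the DMSO libraries, 25.6, 26.1 and 25.6 TPM at 1 h and 13.5, 10.5 and 14.2 TPM at 3 h. Its levels were 16.4, 17.6 and 19.6 TPM at 6 h and 30.3, 31.2 and 29.2 TPM at 24 h. The 3 h and 6 h libraries of PML lay below all DMSO libraries, and those of 24 h overlapped them. Against DMSO, PML had log2 changes of -0.11, -1.08, -0.61 and 0.12 at 1, 3, 6 and 24 h (SE 0.10 each), with adjusted p-values of 0.482, 4.33e-07, 7.93e-05 and 0.318 in that order. The 6 h call of PML was lost under spike-in scaling (-0.43, adjusted p = 0.0653). From 3 h to 24 h PML rose by 1.20 (adjusted p = 4.91e-08). SP110 changed by -0.53 (adjusted p = 2.92e-05) at 3 h and -0.75 (adjusted p = 5.64e-07) at 6 h, and its change at 24 h was 0.47 (adjusted p = 6.67e-05). SP100 changed by -0.24 (adjusted p = 0.0115) at 3 h and 0.50 (adjusted p = 2.01e-05) at 24 h. The 3 h call of SP100 was lost without DMSO replicate 1 (-0.20, adjusted p = 0.05) or KB528 3 h replicate 3 (-0.20, adjusted p = 0.0522). Under spike-in scaling the calls of SP100 at 3 h, SP110 at 24 h and TRIM21 at 24 h were lost. Of the tripartite motif ligases, TRIM21, an antibody receptor of the cytosol, rose by 0.36 (adjusted p = 0.000473) at 6 h and 0.50 (adjusted p = 2.28e-05) at 24 h, and TRIM25, which acts on RIG-I, by 0.32 (adjusted p = 0.00332) at 6 h.

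**Figure D4:**
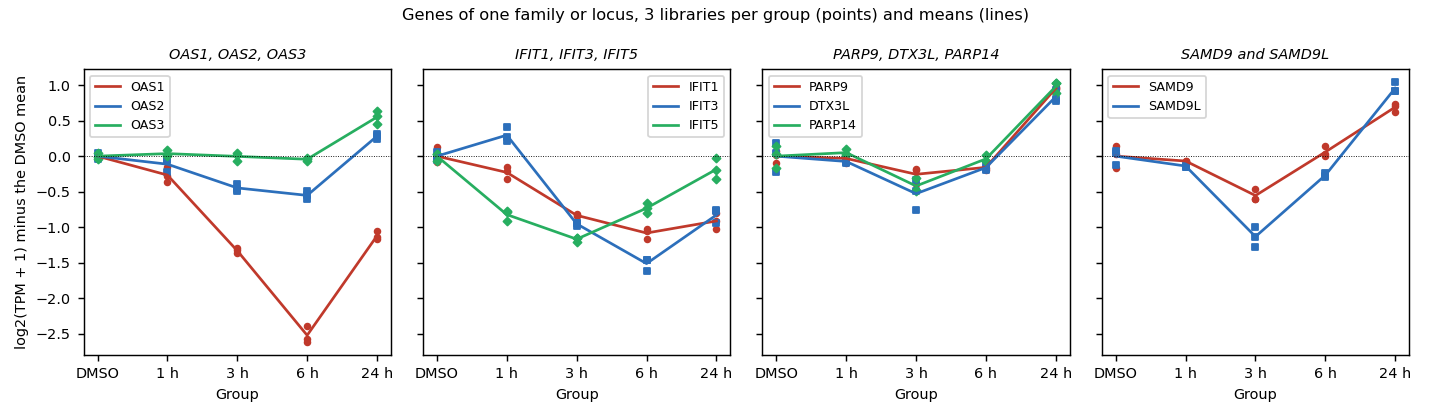
log2(TPM + 1) minus the gene's DMSO mean (y axis) in each library (points) with group means (lines), for DMSO and 1, 3, 6 and 24 h of KB528, in 4 sets of members of one family or locus. The PARP9, DTX3L and PARP14 lines dip at 3 h and end above 0 at 24 h, whereas IFIT1 and IFIT3 stay below 0 from 3 h.

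Antiviral effectors, which act on the virus itself, number 14 among the members. At 3 h 7 of the 10 tested were lower and none higher, at 6 h 9 lower and none higher, and at 24 h 5 lower and 2 higher. Of all tested genes, 32%, 24.5% and 15.2% were lower at these times, and 24.9%, 44.4% and 56.1% higher. Under spike-in scaling the numbers called lower were 5, 5 and 3 in that order of times, against 21%, 8.26% and 5.48% of all genes. The IFIT proteins bind viral RNA ends, and 3 IFIT genes were tested. IFIT3 was at 3.57, 3.82 and 3.43 TPM in the DMSO libraries, 4.31, 4.53 and 5.14 TPM at 1 h and 1.34, 1.40 and 1.39 TPM at 3 h. Its levels were 0.501, 0.677 and 0.669 TPM at 6 h and 1.71, 1.40 and 1.68 TPM at 24 h. IFIT3 libraries lay above DMSO at 1 h and below DMSO from 3 h on. Against DMSO, IFIT3 had log2 changes of 0.30, -0.95, -1.51 and -0.83 at 1, 3, 6 and 24 h (SE 0.08 each), with adjusted p-values of 0.0131, 7.97e-08, 3.91e-10 and 3.07e-07 in that order. The 1 h call of IFIT3 was lost without KB528 1 h replicate 3 (0.24, adjusted p = 0.0705) and under spike-in scaling (0.25, adjusted p = 1). IFIT1 was at 2.37, 1.92 and 1.996 TPM in the DMSO libraries, 1.46, 1.77 and 1.68 TPM at 1 h and 0.714, 0.748 and 0.740 TPM at 3 h. Its levels were 0.378, 0.513 and 0.489 TPM at 6 h and 0.518, 0.780 and 0.636 TPM at 24 h. All KB528 groups of IFIT1 lay below DMSO. Against DMSO, IFIT1 had log2 changes of -0.23, -0.83, -1.08 and -0.91 at 1, 3, 6 and 24 h (SE 0.08 each), with adjusted p-values of 0.0621, 7.69e-07, 3.1e-08 and 2.5e-07 in that order. From 3 h to 24 h the change of IFIT1 was -0.08 (adjusted p = 0.4), short of the threshold.

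IFIT5, in the same gene cluster, fell already at 1 h. IFIT5 was at 3.67, 3.36 and 3.65 TPM in the DMSO libraries, 1.42, 1.65 and 1.67 TPM at 1 h and 1.06, 0.977 and 1.05 TPM at 3 h. Its levels were 1.88, 1.62 and 1.74 TPM at 6 h and 3.46, 2.98 and 2.63 TPM at 24 h. The 1 h, 3 h and 6 h libraries of IFIT5 lay below all DMSO libraries, and those of 24 h overlapped them. Against DMSO, IFIT5 had log2 changes of -0.82, -1.17, -0.73 and -0.18 at 1, 3, 6 and 24 h (SE 0.08 each), with adjusted p-values of 2.68e-06, 1.09e-08, 1.09e-06 and 0.0494 in that order. The 24 h call of IFIT5 was lost without DMSO replicate 1 (-0.17, adjusted p = 0.12) or 3 (-0.17, adjusted p = 0.107), without KB528 24 h replicate 2 (-0.18, adjusted p = 0.102) or 3 (-0.11, adjusted p = 0.232), and in most other settings. From 3 h to 24 h IFIT5 rose by 0.98 (adjusted p = 2.56e-08).

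ISG20, an exonuclease that degrades viral RNA, fell at 6 h and 24 h and was the member furthest below DMSO at 24 h. ISG20 was at 11.9, 12.5 and 10.9 TPM in the DMSO libraries, 12.2, 11.4 and 10.7 TPM at 1 h and 9.56, 10.7 and 10.5 TPM at 3 h. Its levels were 6.35, 6.21 and 6.26 TPM at 6 h and 1.93, 2.45 and 2.09 TPM at 24 h. ISG20 libraries at 3 h, 6 h and 24 h lay below all DMSO libraries, and those at 1 h overlapped. Against DMSO, ISG20 had log2 changes of -0.04, -0.18, -0.81 and -2.02 at 1, 3, 6 and 24 h (SE 0.07 each), with adjusted p-values of 0.725, 0.0462, 1.43e-07 and 1.61e-11 in that order. The 3 h call of ISG20 was lost in 10 of 14 settings, including without DMSO replicate 1 (-0.17, adjusted p = 0.102) or 2 (-0.14, adjusted p = 0.138) and without KB528 3 h replicate 1 (-0.13, adjusted p = 0.182) or 3 (-0.20, adjusted p = 0.059).

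SAMD9L, a cytoplasmic restriction factor next to its paralog SAMD9, fell at 3 h and 6 h and rose at 24 h. SAMD9L was at 4.83, 4.18 and 4.90 TPM in the DMSO libraries, 4.17, 4.08 and 4.08 TPM at 1 h and 1.33, 1.56 and 1.83 TPM at 3 h. Its levels were 3.60, 3.64 and 3.78 TPM at 6 h and 10.6, 9.63 and 9.61 TPM at 24 h. The 1 h, 3 h and 6 h libraries of SAMD9L lay below all DMSO libraries, those of 1 h by a narrow margin (4.17 against 4.18 TPM), and all 24 h libraries lay above. Against DMSO, SAMD9L had log2 changes of -0.14, -1.13, -0.27 and 0.96 at 1, 3, 6 and 24 h (SE 0.08 each), with adjusted p-values of 0.199, 8.56e-09, 0.00537 and 5.8e-08 in that order. The 6 h call of SAMD9L was lost under spike-in scaling (-0.12, adjusted p = 0.63). Its rise from 3 h to 24 h was 2.09 (adjusted p = 6.02e-12), a ratio of mean TPM of 6.31. SAMD9 changed by -0.55 (adjusted p = 1.31e-05) at 3 h and 0.69 (adjusted p = 1.1e-06) at 24 h.

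BST2, the most abundant member, was at 948 ± 20.8 TPM at 6 h and 1195 ± 15.3 TPM at 24 h, with log2 changes of -0.26 (adjusted p = 7.9e-05) at 3 h and -0.27 (adjusted p = 2.83e-05) at 6 h. Its 1 h change was -0.14 (adjusted p = 0.0227), a call lost without DMSO replicate 1 (-0.11, adjusted p = 0.0955) or 2 (-0.13, adjusted p = 0.0666) and without KB528 1 h replicate 2 (-0.15, adjusted p = 0.0518) or 3 (-0.12, adjusted p = 0.0908). All 3 BST2 calls were lost under spike-in scaling (at 3 h -0.48, adjusted p = 0.0657 and at 6 h -0.08, adjusted p = 0.761). The dynamin-like GTPases MX1 and MX2 block viral replication. MX1 changed by -0.31 (adjusted p = 0.00623) at 6 h, and MX2 by -0.50 (adjusted p = 3.55e-05) at 6 h and -0.39 (adjusted p = 0.000344) at 24 h. IFITM1, a membrane protein that hinders viral fusion, changed by -0.40 (adjusted p = 0.00897) at 6 h, and its reads may be shared with its near-identical neighbours IFITM2 and IFITM3. The calls of MX1 and IFITM1 at 6 h and of MX2 at 24 h were lost under spike-in scaling.

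CXCL10, the chemokine that draws CXCR3-bearing lymphocytes, was the member furthest above DMSO and was called higher at every time. CXCL10 was at 4.97, 4.84 and 3.37 TPM in the DMSO libraries, 8.52, 7.72 and 8.05 TPM at 1 h and 14.9, 17.2 and 16.6 TPM at 3 h. Its levels were 18.0, 16.9 and 17.7 TPM at 6 h and 31.9, 28.0 and 29.8 TPM at 24 h. Every KB528 group of CXCL10 lay above all DMSO libraries, and the 24 h libraries lay above those of every other group. Against DMSO, CXCL10 had log2 changes of 0.77, 1.68, 1.80 and 2.53 at 1, 3, 6 and 24 h (SE 0.10 each), with adjusted p-values of 4.47e-05, 1.62e-09, 6.79e-10 and 3.9e-11 in that order. The mean level at 24 h was 6.80 times that in DMSO. The summed level of the 6 monocyte markers was 1.86 to 1.97 TPM in DMSO and 1.35 to 1.73 TPM at 24 h, and its part in the CXCL10 levels was not tested. Between times the change of CXCL10 was 0.11 (adjusted p = 0.355) between 3 h and 6 h and 0.73 (adjusted p = 8.13e-06) between 6 h and 24 h.

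The remaining 3 tested members were all higher at 24 h, as were 56.1% of all tested genes. Under median-ratio scaling 2 of these 3 members were called higher, and under spike-in scaling 2, against 37.1% and 20.3% of all genes. IFI35 went from 37.9 ± 0.979 TPM in DMSO to 66.7 ± 2.14 TPM at 24 h, a log2 change of 0.80 (adjusted p = 1.11e-09), after changes of -0.26 (adjusted p = 0.000136) at 3 h and -0.22 (adjusted p = 0.000371) at 6 h. LGALS3BP, a secreted glycoprotein, rose by 0.72 (adjusted p = 4.61e-05) at 24 h, and IFI6, a membrane protein of the endoplasmic reticulum, by 0.27 (adjusted p = 0.000702). The IFI6 call was lost under median-ratio and under spike-in scaling. Under spike-in scaling IFI35 changed by -0.47 (adjusted p = 0.0674) at 3 h and -0.034 (adjusted p = 0.906) at 6 h.

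The 13 untested members had means below 1 TPM. DDX58 (RIG-I), the sensor of RNA with a free triphosphate end, ran from 0.613 to 1.80 TPM, and its 24 h libraries (from 1.31 TPM) lay above the other 12 (up to 0.944 TPM). OAS3 averaged 0.140 TPM in DMSO and 0.671 TPM at 24 h, and its 24 h libraries lay above the other 12. XAF1, which binds the apoptosis inhibitor XIAP, had a mean of 0.151 TPM in DMSO and 0.640 TPM at 24 h, also without overlap. IFITM2 ran from 0.259 to 1.75 TPM and HERC6 from 0.320 to 0.889 TPM, each with the 24 h libraries above the rest. RSAD2 (viperin) was at 0 in 4 libraries and at most 0.0734 TPM, IFI44L was at 0 in 5 and at most 0.0583 TPM, and USP18 was at most 0.0811 TPM. TRIM22, IFIT2, IFITM3, IFI27 and IFI44 were at most 0.822 TPM in any library and overlapped between DMSO and 24 h.

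The rest of the interferon pathway was read from 69 further genes, of which 37 were tested. None of the 21 interferon genes was tested: 14 were at 0 in every library and the highest value was 0.233 TPM. At 3 h, 8 of the 37 were higher and 20 lower (24.9% and 32% of all tested genes), and at 24 h 21 were higher and 12 lower (56.1% and 15.2%). At 1 h the counts were 5 and 11 (15% and 7.57% of all genes), and at 6 h 14 and 19 (44.4% and 24.5%). Receptor chains were lower at 3 h in 5 of 6 tested, and none was higher, against 32% and 24.9% of all tested genes. IFNLR1, the specific chain of the interferon lambda receptor, went from 4.64 ± 0.604 TPM in DMSO to 1.39 ± 0.238 TPM at 3 h, a log2 change of -1.24 (adjusted p = 2.69e-08). At 24 h IFNLR1 was at 5.66 ± 0.0607 TPM. IL10RB, its partner chain, changed by -0.44 (adjusted p = 7.13e-06) at 3 h and 0.61 (adjusted p = 2.13e-07) at 24 h. IFNGR2, of the interferon gamma receptor, changed by -0.55 (adjusted p = 3.76e-08) and 0.51 (adjusted p = 9e-08) at those times, the latter call lost under spike-in scaling.

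Among kinases and STATs outside the members, the 4 read here were called higher at 6 h and at 24 h. Of all tested genes, 44.4% and 56.1% were called higher at those times. At 24 h STAT3 rose by 0.69 (adjusted p = 7.19e-07), JAK1 by 0.59 (adjusted p = 2.02e-06) and JAK2 by 0.58 (adjusted p = 7.21e-05). Negative regulators were lower at 24 h in 5 of 6 tested, and 1 was higher, against 15.2% and 56.1% of all tested genes. Under spike-in scaling 2 were lower and 0 higher, against 5.48% and 20.3% of all genes. SOCS1, which blocks JAK kinases, went from 3.51 ± 0.403 TPM in DMSO to 8.71 ± 0.380 TPM at 1 h, a log2 change of 1.11 (adjusted p = 3.26e-06), and to 1.71 ± 0.101 TPM at 24 h, a change of -0.73 (adjusted p = 3e-05). CISH changed by -1.20 (adjusted p = 1.45e-07) at 1 h, and the phosphatase gene PTPN6 went from 40.6 ± 1.73 TPM to 14.4 ± 0.410 TPM at 6 h, a change of -1.43 (adjusted p = 1.58e-12).

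Of the other IRF genes, 5 of 5 tested were lower at 6 h, and 2 under spike-in scaling, against 24.5% and 8.26% of all tested genes. IRF2, a repressor at many ISRE sites, went from 33.1 ± 1.73 TPM in DMSO to 12.8 ± 0.584 TPM at 3 h (-1.31 on the log2 scale, adjusted p = 1.45e-10) and 44.9 ± 2.69 TPM at 24 h (0.43, adjusted p = 1.71e-05). The 24 h call of IRF2 was lost under spike-in scaling. IRF4, the plasma cell factor on which myeloma cells depend, went from 91.6 ± 10.5 TPM to 39.2 ± 2.90 TPM at 6 h, a log2 change of -1.20 (adjusted p = 3.08e-09). IRF8 changed by -1.01 (adjusted p = 1.43e-09) at 6 h. Among genes that sense nucleic acids, AIM2 changed by -1.45 (adjusted p = 7.4e-09) at 6 h, TLR9 by -1.17 (adjusted p = 1.68e-08) at 24 h and ZBP1 by 0.92 (adjusted p = 5.55e-07) at 24 h. CXCL9, the interferon gamma-induced chemokine that shares the receptor of CXCL10, went from 1.64 ± 0.145 TPM in DMSO to 13.4 ± 0.899 TPM at 24 h, a log2 change of 2.45 (adjusted p = 9.67e-12). GBP3, a guanylate-binding protein, changed by -1.28 (adjusted p = 1.48e-09) at 3 h and 0.63 (adjusted p = 2.65e-06) at 24 h. WARS, a tRNA synthetase induced by interferon gamma, changed by 0.24 (adjusted p = 0.0005) at 6 h and -0.14 (adjusted p = 0.0195) at 24 h, and both calls were lost under spike-in scaling.

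**Figure D5:**
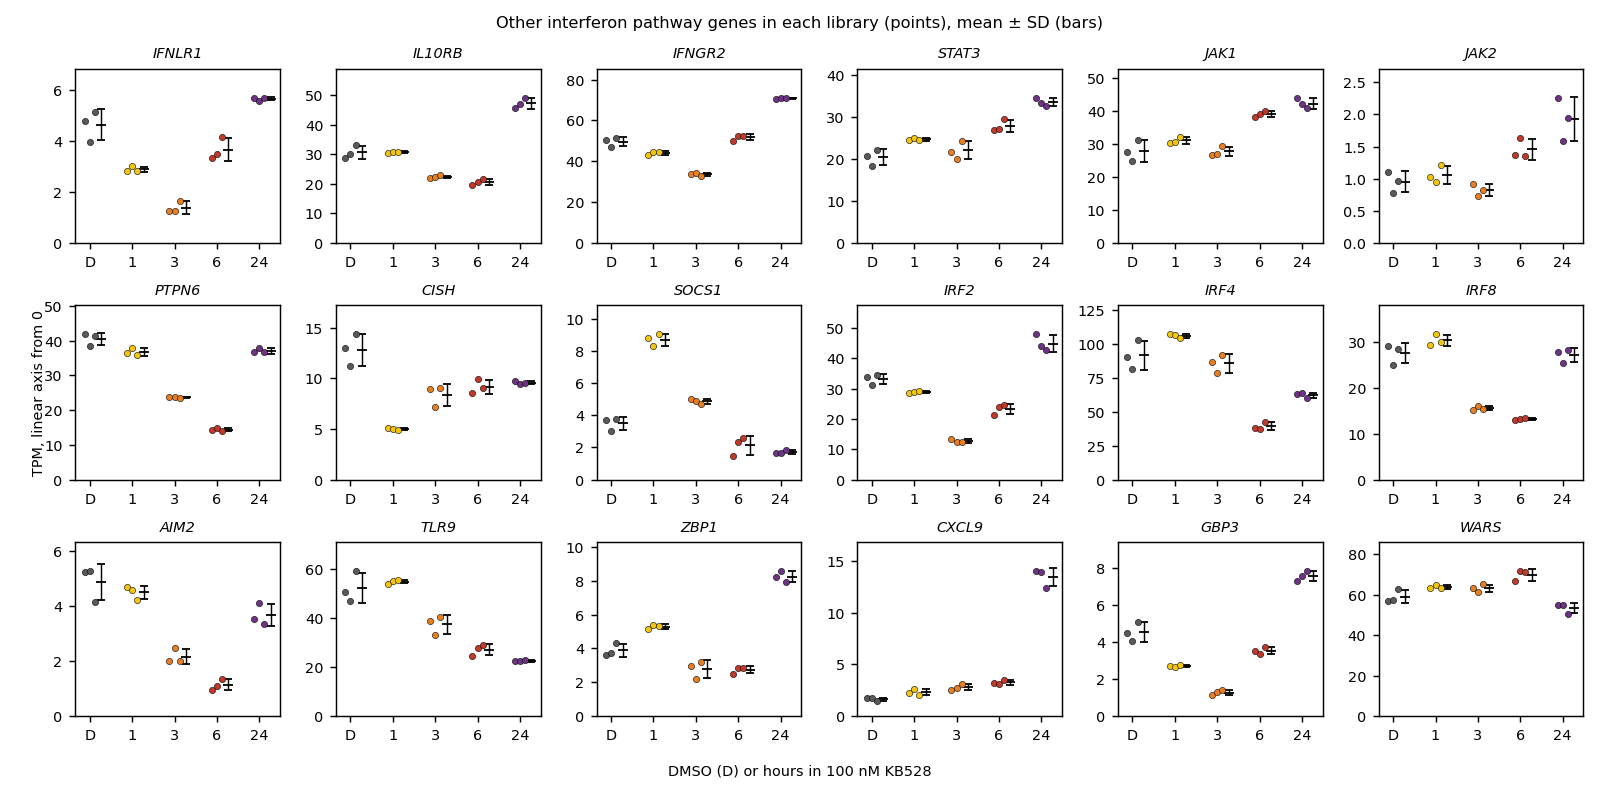
TPM of interferon pathway genes outside the 49 members in each of the 15 libraries (points, 3 per group) with mean ± SD (bars), for DMSO (D) and 1, 3, 6 and 24 h of KB528, each panel on its own linear axis from 0. CXCL9 is highest at 24 h and IRF2 lowest at 3 h.

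Members with and without the ISRE core in their window were set side by side as a description. At 3 h, 11 of 19 tested members with a match were lower and 1 higher, and 8 of 11 without a match were lower and none higher, with medians of -0.25 and -0.39, where 32% of all tested genes were lower and 24.9% higher. At 24 h, 10 of 19 with a match were higher and 5 lower, and 8 of 11 without were higher and 1 lower, with medians of 0.27 and 0.46, where 56.1% of all tested genes were higher and 15.2% lower. Members with a match included both the furthest above DMSO at 24 h (CXCL10) and the furthest below (ISG20). The difference between these sets was not tested.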

How the data were processed

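RNA-seq of 15 libraries was read from 1 table of TPM values that the authors deposited, with 92 spike-in rows and 26364 gene rows. Each column sums to 1000000 with the spike-ins included, so the total depth of a library is not known and no counting interval is given. STAR, featureCounts, FastQC, MultiQC and build hg19 are named per the submitters' processing notes, while their versions and settings, and the step from counts to TPM, are not given in the sources used here. The library kit is strand-specific, per the labels' protocols. The table's columns for the DMSO group are headed as untreated at 0 h. No column was left unused.

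After adding 1, TPM were put on the log2 scale and fitted with limma 3.58.1 (R 4.3.3, trended prior) in 1 model of 5 groups, for the 12002 genes that averaged 1 TPM or more, spike-ins left out, with Benjamini-Hochberg adjustment and a threshold of 0.05. The procedure was tested on simulated data. Genes described with every library's value are the 4 transcription factor members and the 12 tested members with the largest change against DMSO at any time, and pathway genes are at most 3 per list; 1 gene outside the members is not reported here. Members and lists were chosen with earlier results of these data known. Promoter windows are RefSeq sequence on GRCh38.p14 and were matched by symbol, with DDX58 listed as RIGI; no coordinate was converted between builds. Alternatives were a pseudocount of 0.1, a mean of at least 5 TPM or no filter, 3 scalings, the replicate number as a block, a fit of the compared groups alone and leaving out each library in turn.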

Additional observations from a re-analysis of the deposited data

Results flagged for a closer look

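For 20 of the 36 tested members the changes against DMSO at 3 h and at 24 h had opposite signs, negative and then positive, and the difference between these times was itself called (limma, adjusted over all 12002 genes, in the model of all 5 groups). Of all tested genes, 32% were called lower at 3 h, 56.1% higher at 24 h and 56.2% higher at 24 h against 3 h. The share of all tested genes that turned from negative to positive in this way was not counted. Of the 20, 12 were called lower at 3 h and higher at 24 h. Their log2 changes from 3 h to 24 h were 2.09 for SAMD9L, 1.40 for PARP14, 1.37 for DTX3L, 1.25 for SAMD9, 1.21 for PARP9, 1.10 for STAT2, 1.06 for IFI35, 0.997 for SP110, 0.74 for SP100, 0.73 for OAS2, 0.56 for UBE2L6 and 0.52 for IFIH1.

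IRF1 (1.50), PML (1.20) and BST2 (0.32) were called lower at 3 h and were not called against DMSO at 24 h. EIF2AK2 (1.01), DHX58 (0.75), IFI6 (0.36) and ADAR (0.34) were called higher at 24 h and were not called at 3 h. MX1 (0.35) was called against DMSO at neither time. The difference of BST2 was lost under median-ratio scaling (0.11, adjusted p = 0.075).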

How the results depend on the processing

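Of 113 calls of members (4 times against DMSO and 24 h against 3 h), 73 held in every setting run and 96 in every setting but spike-in scaling. Calls were lost in 39 cases under spike-in scaling, in 10 under median-ratio scaling, in 11 on leaving out 1 library and in 1 with the replicate number as a block. The spike-in factors differed between libraries of one group (0.11, -0.22 and -0.52 on the log2 scale at 6 h), and this spread enters those tests. Some lost calls kept their size, as ISG15 at 24 h (-0.45, then -0.47). Others shrank, as IFI35 at 6 h (-0.22, then -0.03).

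Under spike-in scaling, counts moved at 1 h from 3 higher to 1 and from 5 lower to 1, at 3 h from 2 higher to 1, at 6 h from 18 lower to 8, and at 24 h from 21 higher to 12 and from 7 lower to 4. The matching shares of all genes in that setting were 2.91% and 1.02% at 1 h, 3.43% at 3 h, 8.26% at 6 h, and 20.3% and 5.48% at 24 h. The counts of members also moved at 3 h against 1 h from 4 higher to 1 and from 22 lower to 11, at 6 h against 3 h from 9 lower to 1, at 24 h against 6 h from 25 higher to 15, and at 24 h against 3 h from 3 lower to 1. Of all genes in that setting, 0.674% were higher and 17.3% lower at 3 h against 1 h, and 1.93% lower at 6 h against 3 h. At 24 h, 13.7% were higher against 6 h and 5.55% lower against 3 h. Under median-ratio scaling, 9 members were lower at 1 h, 4 higher at 3 h, 11 lower at 24 h and 6 lower at 24 h against 3 h, where 5 were lower with spike-ins out of the total. The shares of all genes under median-ratio scaling were 14.9%, 27.9%, 30% and 33.8% in that order. With spike-ins out of the total, 2677 of 12191 genes were lower at 24 h against 3 h. At a mean of at least 5 TPM, with 22 members tested in place of 36, 9 were lower at 6 h, 3 lower at 24 h, 14 lower at 3 h against 1 h, 5 lower at 6 h against 3 h and 14 higher at 24 h against 6 h. Of all 9320 genes tested at that mean, 2110, 1532, 2872, 1223 and 3399 were called in that order. Apart from the smaller number of members tested at that mean, the cause of these moves was not tested.

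Leaving out 1 library at a time gave 2 to 5 higher and 2 to 5 lower at 1 h, 2 to 4 and 20 to 22 at 3 h, 6 to 7 and 18 to 20 at 6 h, and 20 to 22 and 6 to 7 at 24 h. It gave 2 to 4 higher and 17 to 20 lower at 3 h against 1 h, 12 to 15 and 6 to 10 at 6 h against 3 h, 25 to 26 and 3 to 5 at 24 h against 6 h, and 25 to 27 and 3 to 5 at 24 h against 3 h. Counts moved by over 1.5 times without DMSO replicate 3 (5 higher at 1 h, 4 higher at 3 h), DMSO replicate 1 or 2 (3 lower at 1 h), KB528 1 h replicate 3 (2 lower at 1 h, 2 higher at 3 h against 1 h) and KB528 24 h replicate 2 (5 lower at 24 h against 3 h). Over all tested genes the same counts, in that order, were 2900 and 3238 of 11999, 530 of 12001 and 875 of 12006. The last ones were 560 and 1504 of 11996, and 2268 of 11976.

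Signs turned under spike-in scaling for changes that were not called: STAT2 at 1 h (-0.0028), IRF9 at 3 h (-0.011), IRF1 at 6 h (0.16), and PARP14 at 1 h (-0.0024) and 6 h (0.13). Among pathway calls they turned for MB21D1 at 3 h (-0.046) and IRF3 at 6 h (0.0064). Median-ratio scaling turned IRF1 (-0.12, called lower there and, without DMSO replicate 3, called higher at 0.16) and PML (-0.076, not called), and UBE2L6 (-0.034) at 24 h, and TBK1 at 24 h against 3 h (-0.050). Leaving out 1 library at a time turned uncalled changes, which ranged from -0.020 (without DMSO replicate 2) to 0.14 for STAT2 at 1 h and from -0.064 to 0.058 (without DMSO replicate 3; 0.012 without KB528 6 h replicate 1) for IRF1 at 6 h. They ranged from -0.086 to 0.0048 (without KB528 1 h replicate 3; 0.00073 without DMSO replicate 2) for ISG20 at 1 h, from -0.037 (without DMSO replicate 2) to 0.12 for PARP14 at 1 h and from -0.13 to 0.031 (without DMSO replicate 3) for PARP14 at 6 h, and from -0.083 to 0.0072 (without DMSO replicate 3) for PARP9 at 1 h.

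The replicate numbers of the titles were not treated as pairs: 7 of 30 same-numbered pairs of libraries correlated above 0.1 in their deviations from group means (range -0.16 to 0.43), and 23 of 60 matched best with their own number. With the replicate block, no count of calls moved by over 1.5 times (3 higher and 5 lower at 1 h, 2 and 22 at 3 h, 7 and 18 at 6 h, 21 and 7 at 24 h), and the 24 h call of IFIT5 was lost (-0.18, adjusted p = 0.0575). TPM keeps no depth, so counting error at low levels could not be separated from other spread.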
